A study of Danio rerio with 12 samples.

Results

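Genes of melatonin synthesis and of the pineal gland were examined in zebrafish larvae exposed to T0901317 or GW3965, which activate LXR, the oxysterol-sensing nuclear receptor of lipid metabolism. The set holds 9 listed genes: the tryptophan hydroxylases tph1a, tph1b and tph2, the N-acetyltransferases aanat1 and aanat2, the O-methyltransferases asmt and asmt2, the pineal opsin exorh and the homeobox gene otx5. The genes were chosen from earlier results of the same arrays, in which aanat2 was higher under both agonists. Their differences between agonist and DMSO larvae are therefore given as a description, without a test. Every probe whose RefSeq accession belongs to a listed gene was taken, which gave 13 probes of 7 genes, out of 12858 genes that could be named on the array. No probe was matched to tph1a or tph1b by accession, and these genes were not analysed here. The filter on dim signal, which asks for a signal well above background on at least 3 of 11 arrays, was passed by 12 of the 13 probes, and each of the 7 genes kept at least 1 probe.

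Melatonin is the hormone by which the pineal gland signals night. Tryptophan hydroxylase and aromatic amino acid decarboxylase turn tryptophan into serotonin, arylalkylamine N-acetyltransferase (AANAT) converts serotonin into N-acetylserotonin, and acetylserotonin O-methyltransferase (ASMT) makes melatonin from it. The AANAT step gives the pathway its daily rhythm. Teleost fish carry more than 1 AANAT gene: aanat2 is the pineal gene, driven in zebrafish by the clock within the pineal photoreceptors and by Otx5, while aanat1 is mainly a retinal gene.

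RNA came from pools of 30 whole wild-type larvae of the WIK strain, treated from day 4 to day 6 after fertilization with renewal after 24 h. All groups, controls included, were kept in 0.1% DMSO. The agonist doses are labelled 2 mM T0901317 and 1 mM GW3965, which differ. Whether a micro sign was lost from the labels is not known, so the unit is in doubt and the doses are printed only as labelled. Of 4 deposited 1-colour Agilent arrays per group, T0901317 replicate 2 was left out of the fits, as the study's design text does, so that 4 DMSO, 3 T0901317 and 4 GW3965 arrays entered. Nothing in the labels says whether a replicate is a separate clutch.

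Levels are given as relative signal, the processed signal of a probe divided by the 75th percentile of all probes on that array, which lay between 332 and 390 intensity units on the 11 arrays. A level compares arrays for 1 probe and does not compare one gene with another. Between 78.8% and 83.2% of the probes on an array were well above background, against 89.8% on the array left out. That array correlated across probes with its own group at 0.949 to 0.956, below the 0.987 to 0.994 between arrays of 1 group. The arrays of a group lay together on 1 slide that held no other group, and effects of slide and of treatment cannot be told apart. In RNA of whole larvae, fewer cells of a type and less RNA per cell cannot be told apart either. Photoreceptor identity was readable in the pools: the photoreceptor transcription factor gene crx, which is also a rod and cone marker, was well above background on all 11 arrays. Pineal identity rested mainly on 1 exorh probe, with a processed signal of 32162 to 46528 units, well above background on all arrays. The other exorh probe read only 36.1 to 62.1 units. Which of the 2 reads exorh was not tested. Among the other genes taken as pineal markers, bsx (dim, median 41.2 units) and gngt1 were well above background on all 11 arrays and parapinopsinb on 1. How much of the gngt1 signal came from the retina was not tested, so it does not show pineal identity.

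The first step of the pathway was read through tph2, which encodes the tryptophan hydroxylase of serotonergic neurons and is also known from the zebrafish pineal. Its brightest probe had a relative signal of 0.46, 0.633, 0.549 and 0.647 in the 4 DMSO pools, of 0.584, 0.494 and 0.695 in the 3 T0901317 pools and of 0.61, 0.676, 0.651 and 0.642 in the 4 GW3965 pools. The 3 groups overlapped. The log2 difference from DMSO was 0.04 ± 0.14 (SE, n = 3 against 4) under T0901317 and 0.18 ± 0.13 (n = 4 against 4) under GW3965. Probes 2 and 3 of tph2 lay in the same range of relative signal, 0.451 to 0.694 and 0.428 to 0.638. They differed from DMSO by 0.04 ± 0.13 and 0.04 ± 0.12 under T0901317, and by 0.26 ± 0.12 and 0.20 ± 0.11 under GW3965. For probe 3 every GW3965 pool was above every DMSO pool, by a narrow margin (0.584 against 0.581). Probe 4 was dim (0.0475 to 0.0807) and gave 0.14 ± 0.16 and 0.02 ± 0.15.

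The pineal acetyltransferase gene aanat2 stood apart from the other members in both agonist groups. Its relative signal was 1.18, 1.39, 1.30 and 1.54 in the 4 DMSO pools. It was 5.01, 4.89 and 4.30 in the 3 T0901317 pools. In the 4 GW3965 pools it was 4.44, 4.55, 4.83 and 4.73. Every agonist pool was above every DMSO pool, and the pools of the 2 agonists overlapped. The geometric means were 1.35 in DMSO (SD 0.16 on the log2 scale, n = 4), 4.72 under T0901317 (SD 0.12, n = 3) and 4.63 under GW3965 (SD 0.05, n = 4). In log2 units aanat2 was 1.81 ± 0.10 higher under T0901317 (SE; 95% interval 1.59 to 2.03; 3.50-fold) and 1.78 ± 0.09 higher under GW3965 (1.58 to 1.98; 3.44-fold). By absolute size these differences ranked 64 and 57 among the 36737 probes tested. The T0901317 pool left out of the fits had a relative signal of 3.67, also above every DMSO pool.

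These values rest on 1 of the 2 aanat2 probes on the array. The other probe was never well above background, with a processed signal of 1.49 to 4.08 units in DMSO and 1.59 to 1.92 units in the agonist pools, and gives no level. The measured probe had processed signals of 393 to 603 units in DMSO, 1548 to 1738 under T0901317 and 1509 to 1821 under GW3965, well above background on all 11 arrays and saturated on none.

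**Figure D1:**
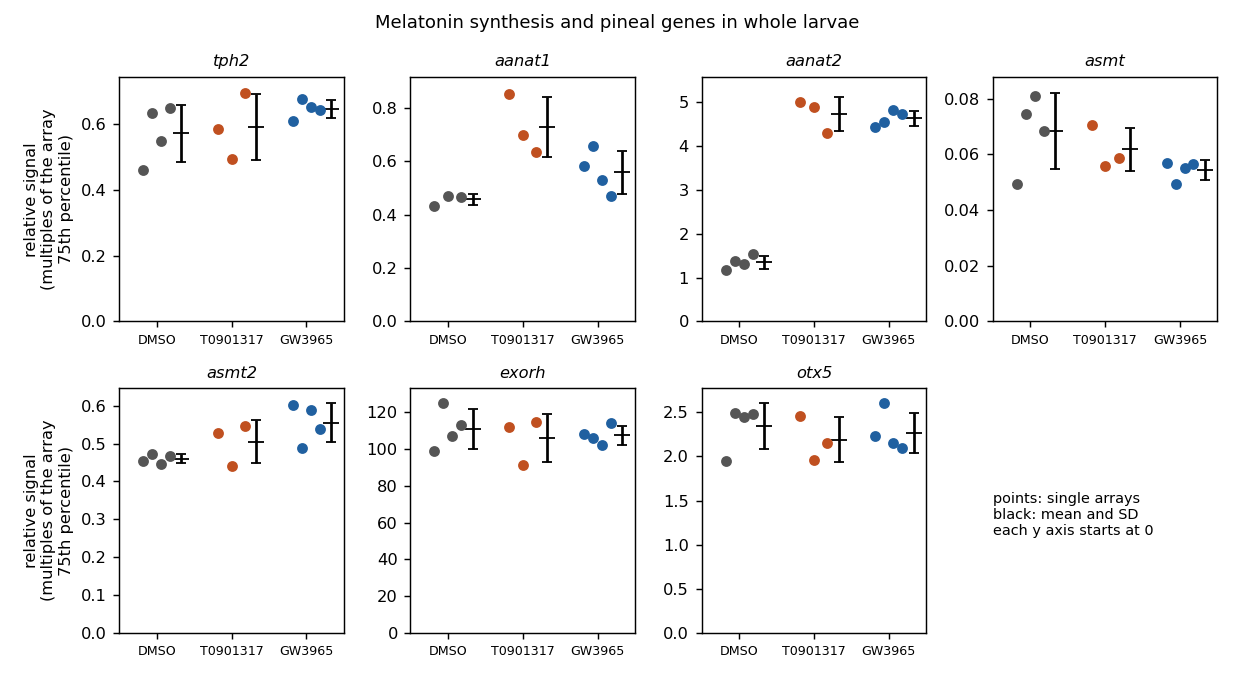
Relative signal (multiples of the array's 75th percentile, y axis, linear and starting at 0 in each panel) of the brightest probe of 7 genes in DMSO, T0901317 and GW3965 pools (x axis). Points are single arrays and black marks the mean with its SD. For aanat2 the 4 DMSO arrays lie between 1.18 and 1.54 and the 7 agonist arrays between 4.30 and 5.01, while for tph2, asmt, exorh and otx5 the 3 groups overlap.

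The retinal acetyltransferase gene aanat1 differed less. Its relative signal was 0.433, 0.471 and 0.466 in DMSO replicates 2, 3 and 4, and 0.850, 0.698 and 0.634 in the T0901317 pools. In the GW3965 pools it was 0.580, 0.655, 0.528 and 0.468. All T0901317 pools were above all DMSO pools measured, while the GW3965 pools overlapped with DMSO. The log2 difference was 0.66 ± 0.14 under T0901317 (n = 3 against 3; 95% interval 0.35 to 0.98) and 0.28 ± 0.13 under GW3965 (n = 4 against 3; -0.02 to 0.58). The spot of aanat1 on DMSO replicate 1 carried a quality flag and was left out. It read 1857 units, a relative signal of 5.60, and with it kept the difference turned to -0.24 under T0901317 and -0.63 under GW3965.

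The methyltransferase genes of the last step were near their DMSO levels. The asmt probe was dim, with relative signals of 0.0493 to 0.0810 in DMSO, 0.0558 to 0.0707 under T0901317 and 0.0492 to 0.0570 under GW3965, and well above background on all arrays. Its groups overlapped, with differences of -0.13 ± 0.16 under T0901317 and -0.30 ± 0.15 under GW3965 (95% interval -0.63 to 0.02). The paralog asmt2 had a relative signal of 0.454, 0.472, 0.447 and 0.468 in DMSO, 0.529, 0.441 and 0.547 under T0901317, and 0.602, 0.489, 0.590 and 0.539 under GW3965. The DMSO pools were close together, and all GW3965 pools were above them. The difference of asmt2 was 0.27 ± 0.09 under GW3965 (0.06 to 0.47) and 0.13 ± 0.10 under T0901317 (-0.09 to 0.35).

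The probes of exorh and otx5 showed no such separation. Whether they read pineal photoreceptors alone in whole larvae was not tested. The main probe of exorh, the extra-ocular rhodopsin of pineal photoreceptors, had a relative signal of 98.8, 125, 107 and 113 in DMSO, 112, 91.2 and 115 under T0901317, and 108, 106, 102 and 114 under GW3965. All 3 groups overlapped. The differences were -0.07 ± 0.11 (95% interval -0.30 to 0.17) and -0.04 ± 0.10 (-0.26 to 0.18). The other exorh probe was dim (0.109 to 0.166) and gave 0.13 ± 0.14 and 0.07 ± 0.13. Over the 11 arrays the deviations of the 2 exorh probes from their group means did not follow each other (r = -0.10).

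For otx5, whose product activates pineal genes in zebrafish, the first probe had a relative signal of 1.95, 2.49, 2.45 and 2.48 in DMSO, 2.46, 1.96 and 2.15 under T0901317, and 2.23, 2.60, 2.15 and 2.09 under GW3965. DMSO replicate 1 was lowest in its group, and the groups overlapped. The differences were -0.09 ± 0.12 (-0.36 to 0.17) and -0.04 ± 0.11 (-0.29 to 0.20). The second otx5 probe gave -0.02 ± 0.12 and 0.06 ± 0.11, and its deviations from group means ran with those of the first (r = 0.929 over 11 arrays). Among the 3 brighter tph2 probes the same correlation was 0.795 to 0.922. It was 0.809 between the main probes of tph2 and exorh, which share the RNA pool of each array.

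**Figure D2:**
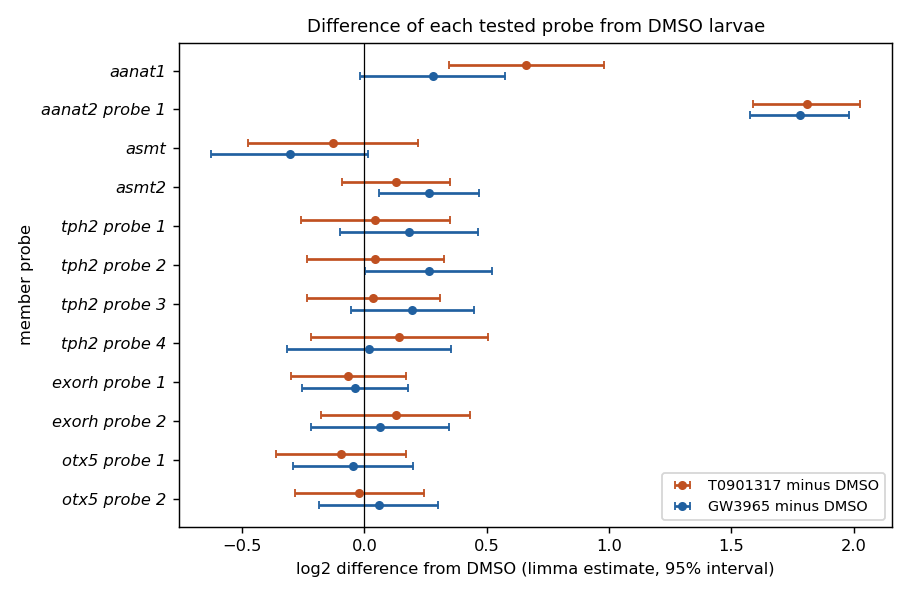
Log2 difference from DMSO (x axis, limma estimate with its 95% interval) of the 12 tested probes of the melatonin and pineal genes (y axis), for T0901317 (orange) and GW3965 (blue). The aanat2 points lie at 1.81 and 1.78, the next largest is aanat1 under T0901317 at 0.66, and the other intervals lie below 0.6.

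Counted over the set, 2 of the 12 probes (aanat2 and aanat1) were past the limma threshold of an adjusted p under 0.05 for T0901317, where 2.54% of all probes were, and 1 (aanat2) for GW3965, where 5.38% were. Nothing is read from these counts, because the genes were chosen with both contrasts known. The aanat1 difference under T0901317 depended on the setting and was past the threshold in 7 of 20 alternatives. The median log2 difference of the 12 probes was 0.04 for T0901317, against 0.03 over all probes, and 0.12 for GW3965, against 0.00. Groups did not overlap for 2 probes under T0901317 (12.4% of all probes) and for 3 under GW3965 (13.8%).

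The aanat2 difference was also expressed relative to other members on the same array, as a further description of the same values. The log2 ratio of aanat2 to exorh had an SD of 0.12 in DMSO (n = 4), 0.26 under T0901317 (n = 3) and 0.09 under GW3965 (n = 4). Its mean was 1.87 higher than in DMSO under T0901317 and 1.82 higher under GW3965. The ratio to otx5 was 1.90 and 1.83 higher, and the ratio to tph2 was 1.76 and 1.60 higher. For each of these 3 denominators all agonist pools were above all DMSO pools. The ratio to aanat1 differed less, by 1.08 and 1.44 from the 3 DMSO pools with a value. As aanat2 was chosen for its difference, the ratios add no support to it. A ratio within an array shows unequal change of the 2 transcripts and not that the denominator was constant.

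**Figure D3:**
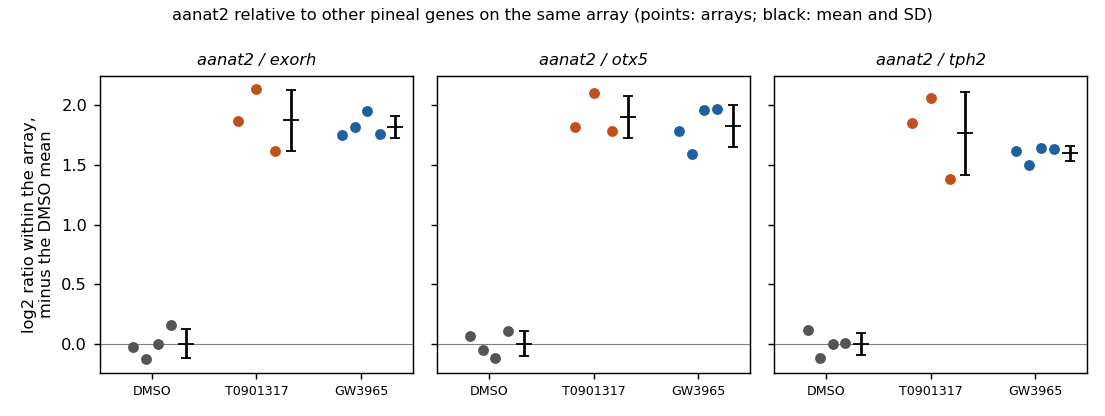
Log2 ratio of aanat2 to exorh, otx5 and tph2 within each array, minus the DMSO mean (y axis), in DMSO, T0901317 and GW3965 pools (x axis). Points are arrays and black marks the mean with its SD. The agonist means lie 1.60 to 1.90 above the DMSO mean in all 3 panels, and no agonist array reaches the DMSO arrays.

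The 2 agonists were also compared with each other, by a limma test over all 36737 probes. The sources used here do not say which contrasts chose the genes, and this contrast is the difference of the 2 contrasts with DMSO, so its values are not independent of the choice. A small difference in aanat2, known to be higher under both agonists, is no separate evidence. At the labelled doses none of the 12 member probes passed (0 of 12, against 4.40% of all probes; limma, Benjamini-Hochberg adjusted p under 0.05), and 1, aanat1, had an unadjusted p under 0.05. The share of all probes at that unadjusted level was not counted. None of the 12 separated the agonist groups without overlap, as 13.6% of all probes did. The aanat2 difference, T0901317 minus GW3965, was 0.03 ± 0.10 (adjusted p = 0.963), with a 95% interval of -0.19 to 0.25. That of aanat1 was 0.38 ± 0.13 (0.09 to 0.68; adjusted p = 0.211). The other 10 probes lay between -0.22 (tph2, second probe, adjusted p = 0.579) and 0.18 (asmt, adjusted p = 0.776). The interval was -0.26 to 0.21 for the main exorh probe and -0.32 to 0.22 for the first otx5 probe. These intervals hold for 1 probe each and take no account of an effect of slide. As both agonists share the same DMSO arrays, their differences from DMSO are not independent of each other.

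The 5 named genes whose level followed aanat2 most closely over the 11 arrays were fads2 (r = 0.992), eepd1 (r = 0.987), acsl4a (r = 0.985), arl13a (r = 0.982) and epd (r = 0.979), out of 12051 genes compared by their brightest probe. Of these genes 64 had r above 0.9, and the median r was 0.104. The desaturase gene fads2 differed from DMSO by 4.14 ± 0.11 under T0901317 and 3.96 ± 0.11 under GW3965. For eepd1 the differences were 1.90 ± 0.09 and 1.70 ± 0.08, for the acyl-CoA synthetase gene acsl4a 1.44 ± 0.09 and 1.40 ± 0.09, for arl13a 0.69 ± 0.09 and 0.63 ± 0.08, and for epd 0.78 ± 0.09 and 0.85 ± 0.08. After subtraction of the group means, r with aanat2 was 0.135 for fads2, 0.0992 for eepd1, 0.0285 for acsl4a, 0.829 for arl13a and 0.362 for epd. The likeness of fads2, eepd1 and acsl4a was thus one of group means and not of pools within a group, and that of epd was weak within groups. The genes were picked by their r with aanat2 over these same arrays, where aanat2 differed mainly between agonist and DMSO pools. Their differences from DMSO therefore follow from the choice and are a description only. The r of arl13a within groups is not free of that choice either.

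Related genes were read from 7 lists, by the brightest probe of each gene. The lists too were drawn up with earlier results of these arrays known, so the p-values of their genes are not independent evidence. Their counts stand against 2.54% of all probes called for T0901317 and 5.38% for GW3965, where 418 probes were higher and 1558 lower. Between the agonists the share was 4.40%. The share of all probes at an unadjusted p under 0.05 was not counted, so nothing is read from list counts at that level. Among the receptors that bind melatonin, 1 gene separated the agonists. Of 6 listed receptor genes, 4 were measured (mtnr1aa, mtnr1al, mtnr1ba and mtnr1c). Under T0901317 1 rose, 0 fell and 3 did not pass. Under GW3965 0 rose, 1 fell and 3 did not pass. The gene was mtnr1c in both cases, which encodes the Mel1c type of melatonin receptor. Its relative signal was 0.170, 0.147, 0.192 and 0.169 in DMSO, 0.268, 0.270 and 0.297 under T0901317, and 0.0852, 0.116, 0.107 and 0.100 under GW3965. No 2 groups overlapped. In log2 units mtnr1c rose by 0.72 ± 0.12 under T0901317 (limma, adjusted p = 0.0109) and fell by 0.73 ± 0.11 under GW3965 (limma, adjusted p = 0.00379).

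The agonists differed in mtnr1c by 1.45 ± 0.12 (2.74-fold; limma, adjusted p = 0.000121), and all 3 calls held in 22 of 22 alternatives. Their size shrank with normexp background correction to 0.37, -0.33 and 0.70. The first mtnr1c probe was dim, with processed signals of 54.9 to 71.7 units in DMSO, 93.0 to 106.9 under T0901317 and 32.1 to 40.5 under GW3965. The second mtnr1c probe, well above background on 6 of 11 arrays, gave 0.48 and -0.18 and a difference between agonists of 0.66 that did not pass (limma, adjusted p = 0.448). Of the 1616 probes called between the agonists, 1574 were higher under T0901317 and 42 lower, so the direction of mtnr1c was that of most called probes. The other receptors were dimmer still: mtnr1aa gave 0.43 ± 0.21 and 0.14 ± 0.19, mtnr1al 0.69 ± 0.30 and 0.13 ± 0.27, and mtnr1ba 0.26 ± 0.45 and -0.71 ± 0.42, none of which passed. The median of the 4 receptors was 0.56 under T0901317 and -0.29 under GW3965.

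Partners of the pathway, from amino acid decarboxylation and tetrahydrobiopterin cofactor supply to serotonin uptake and breakdown, mostly did not pass. Of 22 listed genes 15 were tested: 0 rose and 0 fell under T0901317 (gch1, gch2, ddc, pah and pcbd1 had an unadjusted p under 0.05), while under GW3965 1 rose and 1 fell. The gene that fell was ddc, which encodes the decarboxylase that makes serotonin and also dopamine. Its brightest probe had a relative signal of 7.25, 7.89, 8.43 and 8.46 in DMSO, 6.98, 5.78 and 6.32 under T0901317, and 5.84, 6.13, 5.37 and 6.05 under GW3965. Every agonist pool was below every DMSO pool. The difference was -0.45 ± 0.09 under GW3965 (limma, adjusted p = 0.0123) and -0.33 ± 0.09 under T0901317, which did not pass (limma, adjusted p = 0.0988). The probes of ddc disagreed in size, with differences under GW3965 from -1.16 to 0.06 over 8 tested probes, and under T0901317 from -0.84 to 0.03. Besides the brightest, the probes at -0.56, -1.16 and -0.89 passed under GW3965 (limma, adjusted p = 0.00492, 0.00142 and 0.00956). The remaining tested probes, at -0.11 to 0.06, did not pass. The lowest under T0901317, the dimmest tested ddc probe, was well above background on all 11 arrays and passed there (limma, adjusted p = 0.0323). The probe at -1.16 under GW3965 differed between the agonists by 1.18 (limma, adjusted p = 0.00130).

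The gene that rose was pah, the phenylalanine hydroxylase gene, by 0.43 ± 0.11 (limma, adjusted p = 0.0435), a call that ended in 15 of 22 alternatives (highest adjusted p 0.103). Its second probe gave 0.35 and did not pass (limma, adjusted p = 0.22). The cofactor genes gch1 and gch2, which encode GTP cyclohydrolases, gave 0.53 ± 0.16 and 0.45 ± 0.11 under T0901317 (limma, adjusted p = 0.127 and 0.0615) and 0.40 ± 0.15 and 0.27 ± 0.10 under GW3965 (limma, adjusted p = 0.159 and 0.185). The monoamine oxidase gene mao, whose product breaks serotonin down, gave -0.15 ± 0.09 and -0.07 ± 0.09. The serotonin transporter gene slc6a4a gave 0.05 ± 0.07 and -0.05 ± 0.07. The medians of the list were -0.01 and 0.04.

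Among other pineal opsins and regulators of photoreceptor fate, 19 of 22 listed genes were tested. Under T0901317 0 rose and 1 fell, and under GW3965 0 rose and 0 fell, with medians of -0.14 and -0.03. The gene that fell was rx2, a retinal homeobox gene, by 0.86 ± 0.15 (limma, adjusted p = 0.0132). This call ended when only the 2 groups were fitted and with the left-out array put back (highest adjusted p 0.0658). Under GW3965 rx2 gave -0.52 ± 0.14 (limma, adjusted p = 0.0551) and, with rbp3, was 1 of 2 genes of the list at an unadjusted p under 0.05. Under T0901317 there were 3 at that level, rx2, sagb (-0.42 ± 0.13) and otx2a (0.24 ± 0.08). Of these, sagb and otx2a did not pass the adjustment (limma, adjusted p = 0.152 and 0.165). All 3 rx2 probes had negative values in both contrasts, and 1 of the others passed under GW3965 (-0.53; limma, adjusted p = 0.0406). The photoreceptor regulator crx gave -0.14 ± 0.14 and -0.05 ± 0.13, and the homeobox gene bsx, needed for the pineal in zebrafish, gave 0.21 ± 0.14 and 0.10 ± 0.13.

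Clock genes, which drive aanat2 through the night in fish, mostly did not pass the test. The sample details used here give the day of collection but neither the hour nor the light cycle. A difference in hour between groups therefore cannot be told apart from treatment, for these genes or for aanat2. Of 39 listed genes 31 were tested: 1 rose and 0 fell under T0901317, and 1 rose and 3 fell under GW3965, with medians of 0.05 and 0.06. At an unadjusted p under 0.05 (limma), 3 were higher and 1 lower under T0901317, and 4 higher and 4 lower under GW3965. Between the agonists 2 of the 31 differed, where 4.40% of all probes were called. These were per1a and per3, which encode period repressors of the clock. The relative signal of per1a was 9.02, 4.68, 5.19 and 6.87 in DMSO, 13.1, 7.15 and 9.78 under T0901317, and 3.31, 3.08, 2.51 and 2.80 under GW3965. The GW3965 pools lay below all others, while the T0901317 and DMSO pools overlapped. In log2 units per1a fell by 1.098 ± 0.22 under GW3965 (limma, adjusted p = 0.0181; 0.0558 without GW3965 replicate 3), and T0901317 gave 0.64 ± 0.24 (limma, adjusted p = 0.240). The difference between the agonists in per1a was 1.74 ± 0.24 (limma, adjusted p = 0.00164). Its second probe, well above background on 6 of 11 arrays, gave 0.99 between the agonists (limma, adjusted p = 0.0109). Under GW3965 that probe gave -0.64 and did not pass (limma, adjusted p = 0.0625).

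For per3 the relative signal was 0.513, 0.453, 0.485 and 0.533 in DMSO, 0.771, 0.598 and 0.710 under T0901317, and 0.369, 0.387, 0.331 and 0.326 under GW3965. No 2 groups overlapped. It rose by 0.48 ± 0.11 under T0901317 (limma, adjusted p = 0.0442; the call ended in 12 of 22 alternatives) and fell by 0.49 ± 0.10 under GW3965 (limma, adjusted p = 0.0173; 0.0556 at most, without GW3965 replicate 3 or 4). The agonists differed by 0.97 ± 0.11 in per3 (limma, adjusted p = 0.000436), but its other probe gave -0.09. That probe, well above background on all 11 arrays, showed neither change from DMSO. It gave -0.11 under T0901317 and -0.02 under GW3965 (limma, adjusted p = 0.829 and 0.959). As for mtnr1c, the direction of per1a and per3 between the agonists was that of most called probes. Also under GW3965, nr1d1, a nuclear receptor gene of the clock, fell by 0.55 ± 0.13 (limma, adjusted p = 0.0350) and the repressor gene nfil3-5 rose by 0.39, calls that ended in 9 and 7 of 22 alternatives. The second nr1d1 probe gave -0.43 and did not pass (limma, adjusted p = 0.125). The period gene per2, which light induces in zebrafish, gave 0.27 ± 0.13 and 0.33 ± 0.12 and did not pass.

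**Figure D4:**
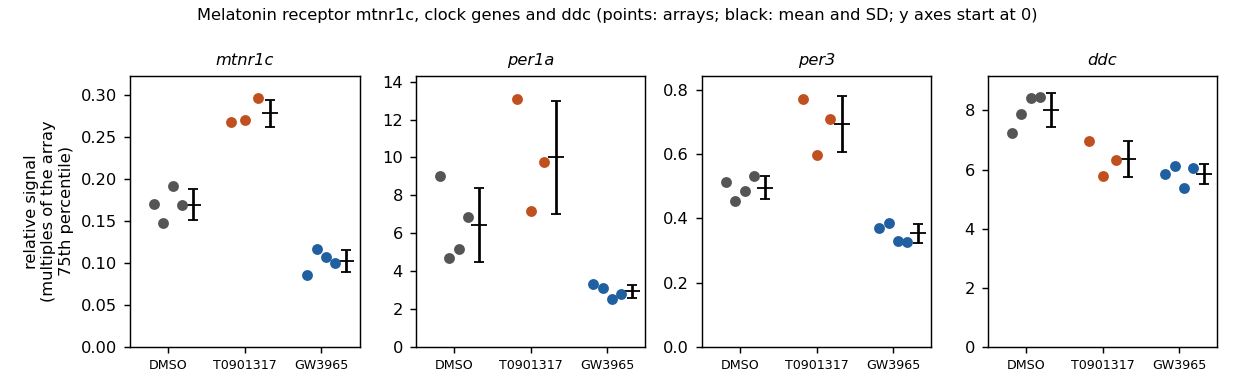
Relative signal (multiples of the array's 75th percentile, y axis, starting at 0) of the melatonin receptor gene mtnr1c, the clock genes per1a and per3 and the decarboxylase gene ddc in DMSO, T0901317 and GW3965 pools (x axis). Points are arrays and black marks the mean with its SD. Each gene is shown by its brightest probe only. For mtnr1c and per3 the T0901317 arrays lie above and the GW3965 arrays below all DMSO arrays, and for ddc all agonist arrays lie below 7.25, the lowest DMSO value.

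Markers of other cells that use these genes were read beside the aanat2 values. Of 31 rod and cone markers 22 were tested: 0 rose and 1 fell under T0901317 (median -0.27, 4 of 22 positive), and 1 rose and 0 fell under GW3965 (median -0.14, 4 of 22 positive). At an unadjusted p under 0.05 (limma) there were 9 lower and 1 higher under T0901317, and 4 lower and 2 higher under GW3965. No share of all probes at this level was counted. Among those that did not pass the adjustment under T0901317, the ultraviolet cone opsin gene opn1sw1 gave -0.75 ± 0.18 (limma, adjusted p = 0.0520), the cone kinase gene grk7a -0.74 ± 0.19 (limma, adjusted p = 0.0719) and the cone arrestin gene arr3a -0.48 ± 0.13 (limma, adjusted p = 0.0951). The gene that fell was rcvrna, a recoverin, by 0.58 ± 0.11 (limma, adjusted p = 0.0263; ended in 9 of 22 alternatives). The other rcvrna probe was lower under both agonists (-0.64 and -0.49; limma, adjusted p = 0.0307 and 0.0431). The green cone opsin gene opn1mw1 rose under GW3965 by 0.50 ± 0.11 (limma, adjusted p = 0.0265; ended in 6). Its second probe gave 0.43 there and did not pass (limma, adjusted p = 0.0831). The summed relative signal of the rod and cone list overlapped between groups, at 685 to 950 in DMSO, 628 to 866 under T0901317 and 741 to 894 under GW3965. That of the list of pineal opsins and regulators was 75.2 to 97.4, 73.9 to 88.1 and 84.6 to 98.9, of which gngt1 made up 20.8% to 25.2%. In both lists the overlap of T0901317 with DMSO rested on DMSO replicate 1 alone (685 and 75.2). The other DMSO arrays, at 883 to 950 and 89.9 to 97.4, were above all T0901317 arrays. The pineal list shares crx with the rod and cone list and holds retinal genes such as rx2, while its opsin valopa had a median of 31.2 units. Its sums are therefore not a measure of the pineal alone. Defining markers of rods and cones (rho, gnat1, gnat2 and arr3a) were well above background on all arrays.

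Of 10 serotonergic neuron markers 8 were tested and none passed in either contrast (limma; 0 rose and 0 fell, with 1 gene, gata3 under GW3965, at an unadjusted p under 0.05), with summed signals of 4.29 to 4.83, 4.48 to 4.96 and 4.31 to 4.69. Of these sums gata2a, which other cells also express, made up 58.3% to 62.9%, and without it they were 1.79 to 1.88, 1.77 to 1.85 and 1.71 to 1.81. The brightest, gata2a and slc6a4a, gave 0.04 ± 0.09 and 0.05 ± 0.07 under T0901317, and -0.03 ± 0.08 and -0.05 ± 0.07 under GW3965. The gene fev, taken as a defining marker of these neurons, gave -0.17 ± 0.17 under T0901317 and -0.32 ± 0.16 under GW3965. Of the 8 genes, 4 were positive under T0901317 (median -0.02) and 1 under GW3965 (median -0.06). Of 14 enteroendocrine markers, whose cells make serotonin in the gut, 12 were tested and 1 rose, insl5b under GW3965 by 0.90 ± 0.17 (limma, adjusted p = 0.0115). That call ended with the left-out array put back (limma, adjusted p = 0.114), and the rise was 0.42 with normexp. At an unadjusted p under 0.05 (limma), 3 of the 12 were higher and 0 lower under T0901317, and 4 were higher and 1 lower under GW3965. The enteroendocrine sums were 24.6 to 30.4 in DMSO, 25.0 to 28.7 under T0901317 and 29.0 to 32.2 under GW3965. The neuronal gene neurod1, which is also on the pineal list, made up 63.6% to 74.3% of them. Without neurod1 the sums were 7.74 to 8.41 in DMSO, 8.86 to 9.21 under T0901317 and 9.30 to 9.53 under GW3965, with no overlap between groups. The brightest genes left in them, gcga and sst2, were not among the markers taken to define these cells. Neither passed in either contrast with DMSO. How often such sums separate by chance was not tested, and nothing is read from them about serotonin cells of the gut. The part of cell composition in the aanat2 difference was not tested.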

How the data were processed

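RNA of whole larvae was hybridised to 12 Agilent arrays. Per the file headers, the authors used Agilent Feature Extraction 11.0.1.1; its processed signals, in intensity units as deposited, are background subtracted, with no scaling between arrays. The deposited series table held the same values. Spots flagged non-uniform or as population outliers were left out and spots of a probe averaged, which gave 43603 probes; 25069 were named through RefSeq accessions (gene table of assembly GRCz12tu, names only). The array design is on Zv8, and no coordinates are given.

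Signals were log2 transformed after division by the array's 75th percentile. Group means of 11 arrays were fitted with limma 3.58.1 in R 4.3.3 (lmFit, eBayes, 8 residual and 2.8 prior degrees of freedom), each probe separately, with Benjamini-Hochberg adjustment over 36737 probes well above background on at least 3 arrays and a threshold of 0.05. The fit was also run on simulated data with independent noise and planted differences. These held no effect of slide or of shared replicate, so the run says nothing about such effects. Intervals cover 95%. The number of arrays limits the precision.

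The members and the 7 gene lists were chosen with earlier results of these data known. Named besides the members were, per list, the called genes of each agonist contrast (at most 4, else the 2 brightest), and the 5 genes most correlated with aanat2. Values of gch1, gch2, mao, slc6a4a, crx, bsx, per2, gata3, rbp3, opn1sw1, grk7a, arr3a, the uncalled receptors and markers were added after they were seen. So were those of fev, sagb and otx2a. Lists were counted by each gene's brightest probe, with no set test.

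Same-numbered arrays of T0901317 and GW3965 deviated together in every pair (r 0.164 to 0.537, n = 3 pairs), each above the 0.1 taken as the limit for pairing; with DMSO all r were positive but 1 pair of each agonist lay under 0.1 (0.064 to 0.503 for T0901317, 0.0413 to 0.419 for GW3965). Some pairs with unlike numbers were also above 0.1, such as T0901317 replicate 3 with GW3965 replicate 1 (0.201) and with DMSO replicate 1 (0.303). Others were negative, as T0901317 replicate 3 with DMSO replicate 4 (-0.438). The labels do not say what numbers share. In the headers the number is the position on the slide.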

Additional observations from a re-analysis of the deposited data

Results flagged for a closer look

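Within groups of 4 arrays, 4 member values lay apart from the other 3 by Dixon's criterion, out of 25 groups examined; chance gives about 1 in 20. In DMSO replicate 1 the relative signal was low for both otx5 probes (1.95 against 2.45 to 2.49, and 1.33 against 1.74 to 1.76) and for probe 3 of tph2 (0.428 against 0.552 to 0.581). These 3 values come from the same pool. In DMSO replicate 3 the aanat2 probe that was not well above background read 0.0109 against 0.00399 to 0.00468.

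For 3 genes the effects of the agonists differed in the limma test of the difference itself, T0901317 minus GW3965: 1.452 for mtnr1c, 0.969 for per3 and 1.737 for per1a on the log2 scale. Of all probes, 4.40% were called in this contrast. For mtnr1c and per3 the 2 agonists lay on opposite sides of DMSO in every array. These values are from the brightest probe of each gene. Between the agonists the other probe gave 0.66 for mtnr1c, -0.09 for per3 and 0.99 for per1a. Only that of per1a passed (limma, adjusted p = 0.0109). The second per1a probe was well above background on only 6 of 11 arrays. Under GW3965 against DMSO it gave -0.64 and did not pass (limma, adjusted p = 0.0625). No cause was tested.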

How the results depend on the processing

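Alternatives numbered 23. The aanat2 difference, a description of values that the choice of genes used, was 1.71 to 1.87 under T0901317 and 1.63 (normexp) to 1.85 under GW3965; leaving out 1 array gave 1.72 to 1.85 under GW3965. Member probes past the threshold for T0901317 fell from 2 to 1 (aanat2) at an adjusted p under 0.01, with flagged spots kept (chosen after seeing the data), no filter, normexp, only the 2 groups, the all-arrays filter, the replicate block and the left-out array put back, and were 1 to 2 on leaving out 1 array; for GW3965 they were 1 to 2, the 2 being without DMSO replicate 1, where asmt passed. Under normexp and the all-arrays filter aanat1 had no value. With flagged spots kept aanat1 was -0.24 under T0901317; leaving out 1 array gave 0.54 to 0.76.

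Probes called for T0901317 numbered 274 at an adjusted p under 0.01, 477 with only the 2 groups, 613 with the array put back and 413 to 894 without 1 array. For GW3965 they numbered 762 at an adjusted p under 0.01, 919 with the array put back and 1213 to 1938 without 1 array. Between the agonists they numbered 933 at an adjusted p under 0.01, 998 with normexp and 1056 to 1595 without 1 array. The lowest counts were without T0901317 replicate 1 (413 and 1056) and GW3965 replicate 3 (1213).

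Small differences between the agonists changed sign: aanat2 to -0.0130 with scaling to the median of bright probes, -0.0639 with the array put back and -0.0148 to 0.0940 without 1 array, asmt to -0.0078 and exorh to 0.0023 with quantile normalization, otx5 to 0.0042 with the array put back. Without 1 array exorh ranged from -0.0860 to 0.0800 and otx5 from -0.136 to 0.0262. With the replicate block aanat2 was 1.81, 1.78 and 0.03 in the 3 contrasts, and 929, 2373 and 1592 probes were called. The block changed no member call between the agonists, the contrast in which every same-numbered pair was above the limit for pairing. The causes of these changes were not tested. Slide and treatment cannot be separated, aanat2 rests on 1 probe, and asmt and the measured melatonin receptors, mtnr1c included, are dim.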
